A study of Rattus norvegicus with 23 samples.

Results

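The genes described are those of the 3 neuropeptide precursors that mark the projection neurons of the striatum. Penk encodes preproenkephalin, Pdyn encodes preprodynorphin, and Tac1 encodes the precursor of substance P and neurokinin A. They were taken by identifier, with the chromosome checked, and are 3 of the 32552 genes counted in each of 23 dorsal striatum libraries, 1 library per rat. All 3 passed the filter on low counts, as did 16275 genes in all.

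All rats were adult wild type Long Evans rats, males according to the study's methods, fitted for intravenous self-administration. Ct rats (6) self-administered saline and received no footshock. The other rats self-administered methamphetamine (METH) at 0.1 mg/kg per infusion during 22 days of training. They then worked for METH while part of the reinforced lever presses also brought a footshock, over 8 days at 0.18 to 0.36 mA. After 15 days of forced abstinence all rats returned to self-administration for 12 days, and METH rats met footshocks of 0.30 mA on 3 days. SR rats (6) kept taking METH through both footshock phases. RSR rats (5) reduced intake in the first phase and resisted footshock in the second. SS rats (6) reduced intake in both. The study calls these METH groups always shock-resistant, delayed shock-resistant and always sensitive. Tissue was taken the day after a drug-seeking test that followed a further 15 days without METH. The METH groups were formed by behavior after the fact, so METH exposure and footshocks received can differ between them, and every METH rat had both METH and footshock, so the 2 cannot be told apart against Ct.

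Most neurons of the dorsal striatum are GABAergic projection neurons of 2 kinds. Those of the direct pathway carry the dopamine D1 receptor and express Tac1 and Pdyn. Those of the indirect pathway carry the dopamine D2 receptor and express Penk. Enkephalins act mainly at delta and mu opioid receptors and dynorphins at the kappa opioid receptor, through which dynorphin lowers dopamine release. Substance P acts at neurokinin receptors, among others on cholinergic interneurons. Dopamine acting at D1 receptors is known to increase Pdyn and Tac1 transcription, and loss of D2 receptor signaling to increase that of Penk. In RNA from whole tissue, fewer cells of a type and less RNA per cell cannot be told apart.

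In the Rnor6.0 annotation of the count files, Penk (ENSRNOG00000008943) lies on the minus strand at chr5:17056419-17061837, with 3 merged exon blocks of 1702 bases in all. Pdyn (ENSRNOG00000026036) lies on the minus strand at chr3:122194329-122206671, with 4 blocks of 2439 bases. Tac1 (ENSRNOG00000007374) lies on the plus strand at chr4:33638709-33646819, with 7 blocks of 1178 bases. The one gene whose span overlaps that of a member, ENSRNOG00000036484, lies on the strand of Penk, and whether their exons overlap was not tested.

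Pdyn and Tac1 are both expressed in direct pathway neurons, and their promoters are regulated through cAMP signaling. Upstream sequences were sought for all 3 genes, and those found, just upstream of Pdyn and Tac1, are shown. They come from RefSeq on GRCr8, a later build than that of the counts, and positions are counted upstream of the start used in that table. The table matched 2 of the 3 genes. The window searched was the 250 bases before the start of each gene, and capitals mark a match to a motif that was searched for. The Pdyn window is shown whole, at chr3:137366504-137366753 (minus strand). Of the Tac1 window, 2 stretches of 30 bases around the matches are shown, at chr4:36645365-36645394 and chr4:36645499-36645528 (plus strand). RefSeq lists other Tac1 transcripts that start further upstream, so these stretches may lie within them.
Pdyn, 250 bases upstream: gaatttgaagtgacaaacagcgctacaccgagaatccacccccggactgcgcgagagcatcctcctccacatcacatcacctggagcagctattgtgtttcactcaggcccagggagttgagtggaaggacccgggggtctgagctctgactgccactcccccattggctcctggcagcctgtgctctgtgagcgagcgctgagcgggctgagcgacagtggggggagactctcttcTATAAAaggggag
Tac1, CGTCA match: tccctaaaattgCGTCAtttcgaacccaat
Tac1, E-box: tggggagagtgtCACGTGgctctccaggct

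The Pdyn window held a TATA box (TATAAA, forward strand) at 13 to 8 bases before the start, a motif found in 8.06% of the 33469 promoters in the table. Tac1 held CGTCA, the reverse complement of TGACG, the core of the cyclic AMP response element (CRE), at 206 to 202 bases upstream, and 18.2% of promoters held this core on either strand. Tac1 also held an E-box (CACGTG) at 72 to 67 bases upstream, as did 5.59% of promoters. The full CRE (TGACGTCA, which contains that core) and the AP-1 site (TGANTCA) were in neither window of 250 bases. They were in 1.59% and 6.34% of promoters on either strand. These matches are letters in a window and describe no factor's binding. Penk was not in the table.

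Each library held between 18967015 and 28137676 counts (median 23069812), and RSR totals (24588332 to 28137676) lay above all Ct totals (at most 23248971). The share of counts on mitochondrial genes was 11.65% to 19.58%, the highest value being that of SS rat Grp7-R1. Rats are named by the codes in the sample titles, in which Grp7 (13 rats) and Grp8 (10 rats) mark 2 sets present in every group, and what these numbers stand for is not given in the sources used here. The lists of other pathway genes and of tissue and cell type markers were not analysed here, because no table paired their symbols with identifiers.

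Penk was among the most abundant mRNAs of the tissue. Per length, its mean over the 23 rats was 598 ± 130 RPKM (reads scaled to library size and exon length; SD), which ranked 62 of the 16275 genes tested and placed it in the top 0.381%. Tac1 followed at 156 ± 50.6 RPKM, rank 405 and the top 2.49%. Pdyn, at 60.8 ± 11.7 RPKM, was at rank 1310, in the top 8.05%. In RPKM the lowest Penk value of any rat (424) was above the highest Tac1 value (258). The lowest Tac1 value (90.1) was also above the highest Pdyn value (87.3), by a smaller margin.

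With these levels, counting error was small beside the differences between rats. The library with the fewest reads of each gene held 17003 for Penk, 2307 for Pdyn and 2437 for Tac1. The counting error at these minimums was 0.767%, 2.08% and 2.03% of the value. The biological coefficient of variation within groups, from the edgeR fit, was 20.7% for Penk, 16.8% for Pdyn and 30.5% for Tac1. Across all 23 rats the highest value was 2.12 times the lowest for Penk, 2.00 times for Pdyn and 2.86 times for Tac1. The share of variance between groups on the log2 scale was 25% for Pdyn, 6.94% for Penk and 8.67% for Tac1. These shares are not corrected for the number of groups, and part or all of each can arise with no group effect. A single edgeR test for any difference among the 4 groups gave an unadjusted p of 0.0881 for Pdyn, 0.648 for Penk and 0.723 for Tac1.

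**Figure D1:**
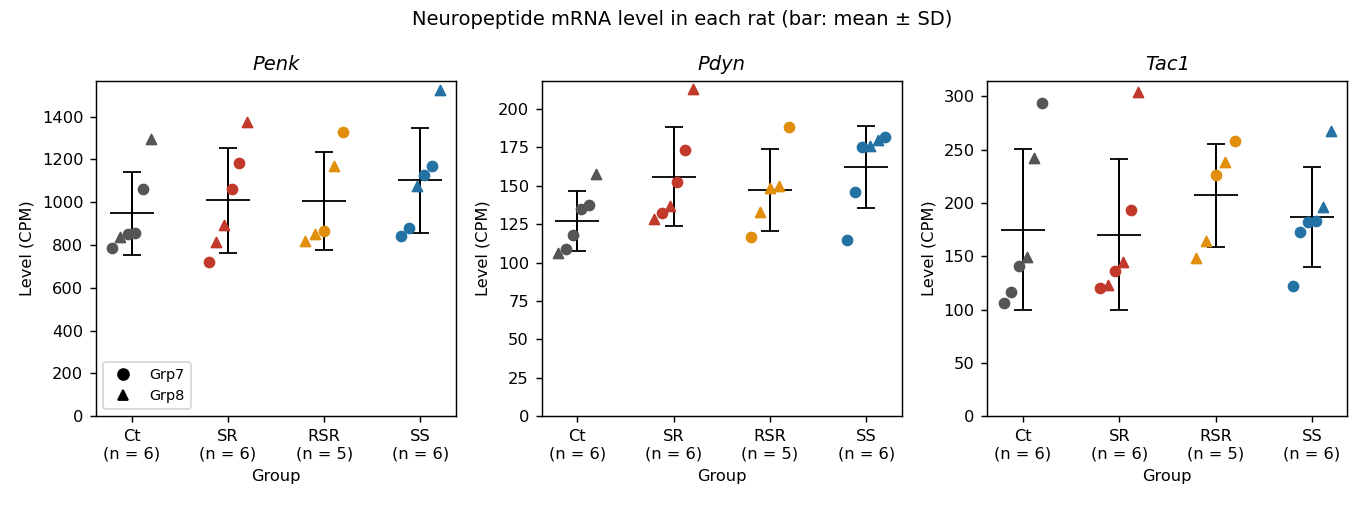
Level of Penk, Pdyn and Tac1 in CPM (TMM-scaled) in each rat of the Ct, SR, RSR and SS groups, with 1 point per rat (circles for Grp7, triangles for Grp8), and the mean with SD as bars. Within each gene the groups overlap, and for Pdyn the Ct rats lie between 107 and 158 CPM while 4 of 6 SS rats lie above them.

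Pdyn, the precursor of the dynorphins, had its lowest mean in Ct rats and a higher mean in each METH group. In Ct, Pdyn ranged from 107 to 158 CPM (counts scaled to library size with TMM factors, not to length) with a median of 126. In SR, it ranged from 129 to 213 CPM with a median of 145. The 6 SR rats were all above the Ct median, and 2 of them above the highest Ct rat.

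In RSR rats, Pdyn was at 117, 133, 149, 150 and 188 CPM, so that 4 of 5 exceeded the Ct median and 1 exceeded the highest Ct rat. In SS, it ranged from 115 to 182 CPM with a median of 176. Of the SS rats, 5 of 6 were above the Ct median and 4 were above the highest Ct rat, while the lowest was Grp7-R1, the rat with the high mitochondrial share. Means were 127 ± 19.7 CPM in Ct (SD, n = 6), 147 ± 26.6 in RSR (n = 5), 156 ± 32.4 in SR (n = 6) and 162 ± 26.8 in SS (n = 6).

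None of the Pdyn differences passed the test after adjustment over all genes. Against Ct, Pdyn in SS differed by a log2 fold change of 0.35 with SE 0.138 (1.28-fold; 95% confidence interval 0.07 to 0.64; edgeR's quasi-likelihood test, Benjamini-Hochberg adjusted p = 0.153). Its unadjusted p was under 0.05, as it was for 21.4% of all genes tested in that comparison, 9.63% in the upward direction. In SR the log2 fold change of Pdyn against Ct was 0.29 with SE 0.138 (1.23-fold; interval 0.01 to 0.58; edgeR adjusted p = 0.949). Here too its unadjusted p was under 0.05, beside a background of 4.92% of genes, 2.27% upward.

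In RSR the log2 fold change of Pdyn against Ct was 0.21 with SE 0.144 (interval -0.09 to 0.51; edgeR adjusted p = 0.982), beside a background of 4.63% of genes. With the 3 METH groups weighted equally, Pdyn in METH rats differed from Ct by 0.29 (log2; SE 0.115; interval 0.05 to 0.53; edgeR adjusted p = 0.521). Of the 17 METH rats, 15 were above the Ct median and 7 above the highest Ct rat. The unadjusted p of Pdyn was under 0.05 for METH against Ct, where the background was 8.82% of genes, 3.69% upward. The 4 comparisons share the same 6 Ct rats and are therefore not separate evidence.

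The Pdyn means of the 3 METH groups lay closer to each other than to that of Ct, and no difference between them passed the test. The log2 fold change of Pdyn was -0.06 for SR against SS (interval -0.34 to 0.23), where 8.65% of all genes had an unadjusted p under 0.05. For RSR against SS it was -0.14 (interval -0.44 to 0.16), beside a background of 25.3%. For SR against RSR it was 0.08 (interval -0.22 to 0.38), beside 4.29%. For both resistant groups together against SS it was -0.10 (interval -0.35 to 0.15), beside 21.2%. The order of the means was Ct, RSR, SR, SS, and no 2 neighbors in it differed beyond their spread. A single test for any difference among the 4 groups gave an edgeR adjusted p = 0.372 for Pdyn, and 15.6% of genes, Pdyn not among them, had an unadjusted p under 0.05.

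The values of Pdyn against Ct depended on single rats. Without Ct rat Grp7-R6 or Ct rat Grp8-R11, the log2 fold change of SS against Ct was 0.30 or 0.29 and its unadjusted edgeR p was no longer under 0.05, whereas without SS rat Grp7-R1 it was 0.42 (edgeR adjusted p = 0.139). Without SR rat Grp8-R7, the rat with the highest Pdyn level, the log2 fold change of SR against Ct was 0.19. Without RSR rat Grp7-L2, that of RSR against Ct was 0.10. With single rats left out, Pdyn stayed past the unadjusted edgeR threshold of 0.05 in 10 of 12 fits for SS against Ct. For SR against Ct it did so in 6 of 12 fits, and for METH against Ct in 20 of 23. Under the other settings, DESeq2 included, it did so in 8 of 10 fits for SS, 6 of 10 for SR and 6 of 8 for METH. Within Grp7 and Grp8 by themselves the log2 fold changes of Pdyn were 0.31 and 0.42 for SS, 0.29 and 0.27 for SR, and 0.29 and 0.12 for RSR, each against Ct of the same number. Over all 187 other settings and left-out rats the adjusted p of Pdyn stayed between 0.0867 and 1.

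**Figure D2:**
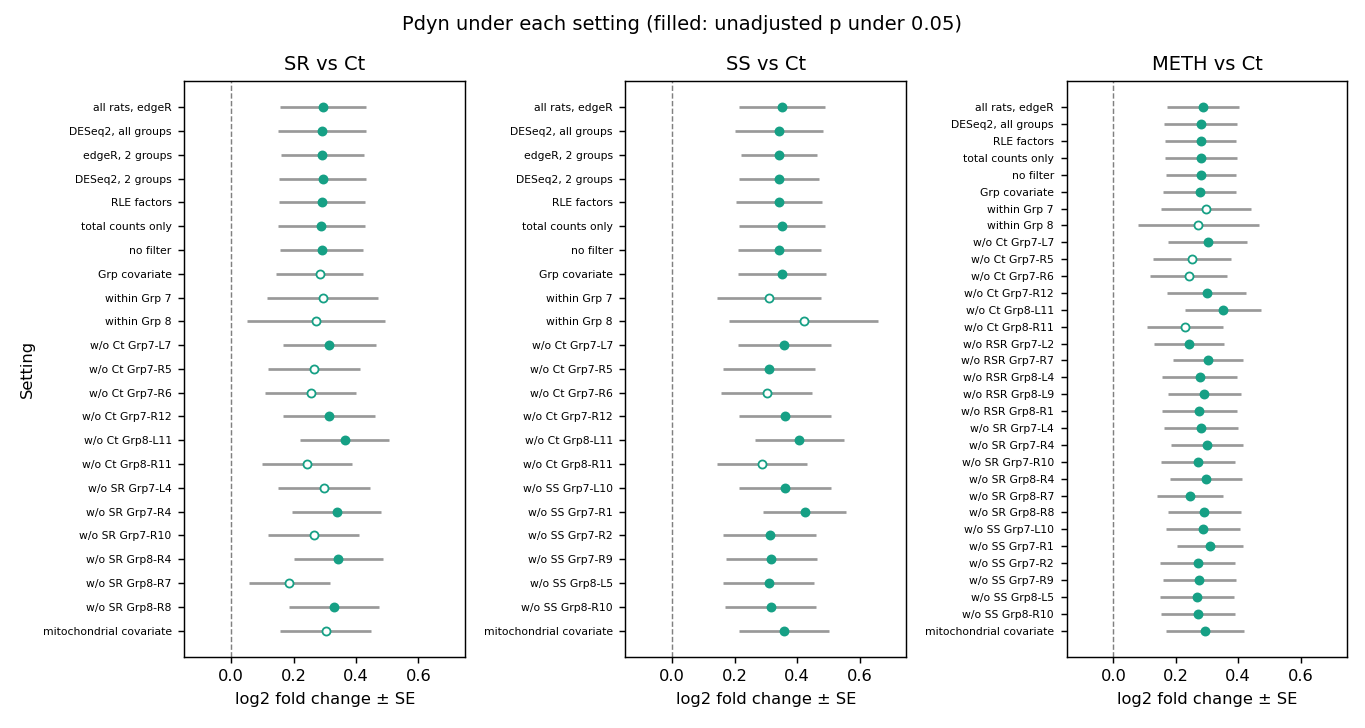
Log2 fold change of Pdyn (x axis, with SE) against Ct for SR, SS and all METH rats, recomputed under each setting listed on the y axis, where "w/o" means without that rat. All points lie above 0, between 0.19 and 0.42 over the 3 comparisons, and open points have an unadjusted p of 0.05 or more.

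Penk, the precursor of the enkephalins, varied over a similar range in all 4 groups. In Ct, Penk ranged from 788 to 1296 CPM with a median of 853. In SR, it ranged from 721 to 1377 CPM with a median of 976. In Ct 4 of 6 rats lay between 788 and 856 CPM, below Grp7-L7 and Grp8-L11, and SR held both the lowest of all 23 rats and the second highest.

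In RSR rats, Penk was at 820, 853, 865, 1171 and 1328 CPM, with 3 low values and 2 high ones. In SS, it ranged from 843 to 1526 CPM with a median of 1101, and the highest of all rats was SS Grp8-R10. Means were 948 ± 195 CPM in Ct (SD, n = 6), 1007 ± 228 in RSR (n = 5), 1008 ± 246 in SR (n = 6) and 1103 ± 246 in SS (n = 6).

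Penk did not pass the test in any comparison. Its log2 fold change against Ct was 0.22 with SE 0.170 in SS (interval -0.14 to 0.57; edgeR adjusted p = 0.459). It was 0.09 in SR (interval -0.26 to 0.44) and 0.09 in RSR (interval -0.28 to 0.46). Taken over the METH groups it was 0.13 (interval -0.16 to 0.42; edgeR adjusted p = 0.802). Between METH groups the log2 fold change of Penk was -0.13 for SR against SS (interval -0.48 to 0.22), -0.13 for RSR against SS (interval -0.50 to 0.24) and 0.00 for SR against RSR (interval -0.37 to 0.37). The SD of Penk over all 23 rats was 0.30 on the same scale. Without SS rat Grp8-R10 the log2 fold change of Penk was 0.09 for SS against Ct, -0.0017 for SR against SS and -0.0098 for RSR against SS, so this rat carried most of these differences. The order of the means was Ct, RSR, SR, SS, as for Pdyn, and no neighbors in it differed beyond their spread.

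Tac1, the tachykinin precursor, was the most variable of the 3 genes. In Ct, Tac1 ranged from 106 to 294 CPM with a median of 145. In SR, it ranged from 120 to 304 CPM with a median of 140. In both groups most rats were low and 1 or 2 rats were far higher, namely Ct rats Grp7-L7 and Grp8-L11 and SR rat Grp8-R7.

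In RSR rats, Tac1 was at 148, 164, 226, 239 and 258 CPM, all 5 above the Ct median and none above the highest Ct rat. In SS, it ranged from 122 to 267 CPM with a median of 183, again with 5 of 6 rats above the Ct median. Means were 170 ± 70.7 CPM in SR (SD, n = 6), 175 ± 75.6 in Ct (n = 6), 187 ± 46.9 in SS (n = 6) and 207 ± 47.9 in RSR (n = 5). The order of the Tac1 means therefore differed from that of the opioid peptide genes, and no neighbors in it differed beyond their spread.

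The largest log2 fold change of Tac1 was that between the resistant groups, -0.28 for SR against RSR with SE 0.267 (interval -0.84 to 0.27; edgeR adjusted p = 0.854). Its size turned on SR rat Grp8-R7, without which it was -0.53 (edgeR adjusted p = 0.583). Against Ct, the log2 fold change of Tac1 was 0.24 in RSR (interval -0.31 to 0.80), 0.10 in SS (interval -0.43 to 0.63) and -0.04 in SR (interval -0.57 to 0.49). The value for RSR was 0.45 without Ct rat Grp7-L7 and 0.13 without Ct rat Grp7-R6. Over the METH groups the log2 fold change of Tac1 was 0.10 (interval -0.34 to 0.54). Against SS it was 0.15 for RSR (interval -0.41 to 0.70) and -0.14 for SR (interval -0.67 to 0.39), and the lowest adjusted p of Tac1 among the 8 comparisons was 0.763.

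**Figure D3:**
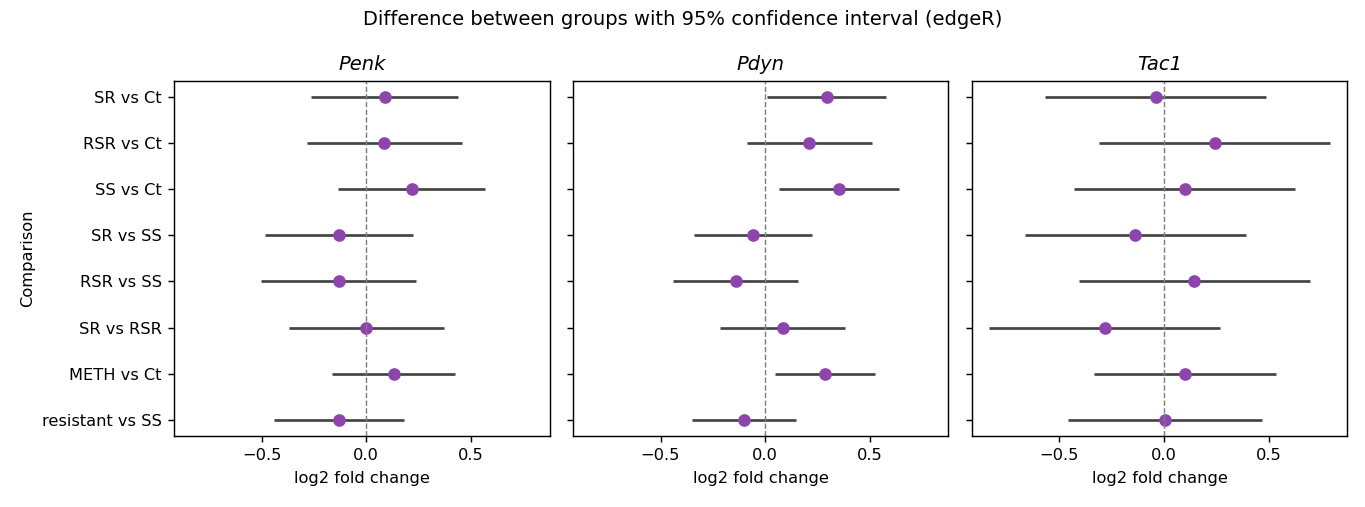
Log2 fold change (x axis, points) and 95% confidence interval (lines) of Penk, Pdyn and Tac1 in the 8 comparisons on the y axis, from the edgeR fit of all 23 libraries. The intervals of Pdyn for SR, SS and METH against Ct lie above 0, before adjustment over genes, and all other intervals cross 0.

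Across all genes, edgeR made 0 calls at an adjusted p under 0.05 in each of the 8 comparisons and in the joint test (0% of 16275 genes), so the 3 peptide genes did not stand apart from other genes in having no call. At an unadjusted p under 0.05, edgeR's counts ran from 699 genes for SR against RSR to 4111 for RSR against SS. DESeq2 on the same 4 groups called 884 genes for SS against Ct, 726 for RSR against SS and 449 for the resistant groups against SS. It called 1 gene each for SR against RSR and METH against Ct and 0 in the other 3 comparisons, and Penk, Pdyn and Tac1 were among none of these calls. The edgeR count also turned on single rats. It was 1377 for SS against Ct without Ct rat Grp7-R5 and 1299 without SS rat Grp7-L10, and for RSR against SS it was 1954 without RSR rat Grp8-L9 and 904 without SS rat Grp7-L10. For the resistant groups against SS it was 813 without SS rat Grp7-L10. With any rat left out, the lowest adjusted p was 0.131 for Pdyn, 0.383 for Penk and 0.537 for Tac1. None of the 24 log2 fold changes of the 3 genes reached the 1.5-fold used in the study as a limit.

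Ratios of 2 of the mRNAs within a library do not depend on scaling, and weigh one peptide against another in the same rat. Over the 23 rats the Penk to Pdyn count ratio was 5.45 to 8.66 (median 6.83), the Penk to Tac1 ratio 3.62 to 8.84 (median 5.58), and the Pdyn to Tac1 ratio 0.468 to 1.27 (median 0.891). On the log2 scale the SD of the Penk to Pdyn ratio was 0.18, the lowest of the 3, against 0.30 for Penk to Tac1 and 0.38 for Pdyn to Tac1.

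In Ct, the Penk to Pdyn ratio ranged from 5.85 to 8.22 with a median of 7.79. In SR, it ranged from 5.45 to 6.96 with a median of 6.50. The Ct group had 5 of 6 rats above the highest SR rat, and the exception, Ct rat Grp7-R12, was below 5 of the 6 SR rats. The difference was -0.21 on the log2 scale (two-sided exact permutation test, p = 0.0368), and did not pass after adjustment over the 18 ratio tests (adjusted p = 0.403). Without Ct rat Grp7-R12 it was -0.28 with an exact permutation p of 0.00216, the smallest possible with the rats left (adjusted p = 0.039). No other Ct or SR rat left out gave a call, with adjusted p of 0.263 or more. In those cases the unadjusted exact permutation p was mostly above the threshold. It ran from 0.0346 without SR rat Grp7-L4 to 0.0801 without Ct rat Grp8-L11. The difference between SR and Ct thus depended on single rats in both directions. Within Grp7 the difference was -0.16 and within Grp8 -0.32, where so few rats allow no exact permutation p below 0.0286 and 0.1. The median ratio was also below that of Ct in the other METH groups, at 7.05 in RSR and 6.42 in SS. Their log2 differences from Ct were -0.13 and -0.14 (exact permutation p = 0.277 and 0.247). The log2 difference of SR against SS was -0.07 (exact permutation p = 0.496).

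The Penk to Tac1 ratio was lower in RSR than in SS before adjustment. In RSR rats it ranged from 3.82 to 5.53 with a median of 5.15, and in SS from 4.88 to 7.20 with a median of 5.95. The log2 difference was -0.28 (exact permutation p = 0.0455, adjusted p = 0.403), with 4 of 6 SS rats above the highest RSR rat. It was -0.46 within Grp7 and -0.10 within Grp8. With single rats left out its unadjusted p was mostly above 0.05, up to 0.114 without RSR rat Grp7-R7, and was 0.0159 without SS rat Grp7-R1. For this ratio SR against RSR differed by 0.33 (exact permutation p = 0.104), with 4 of 6 SR rats above the highest RSR rat. RSR against Ct differed by -0.23 (exact permutation p = 0.251). The Pdyn to Tac1 ratio was higher in SR (0.700 to 1.27) than in RSR (0.516 to 1.00) by 0.41 on the log2 scale (exact permutation p = 0.0671, adjusted p = 0.403). It was higher by 0.75 within Grp7 and by 0.15 within Grp8. None of the 18 ratio tests passed after adjustment with all rats included.

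**Figure D4:**
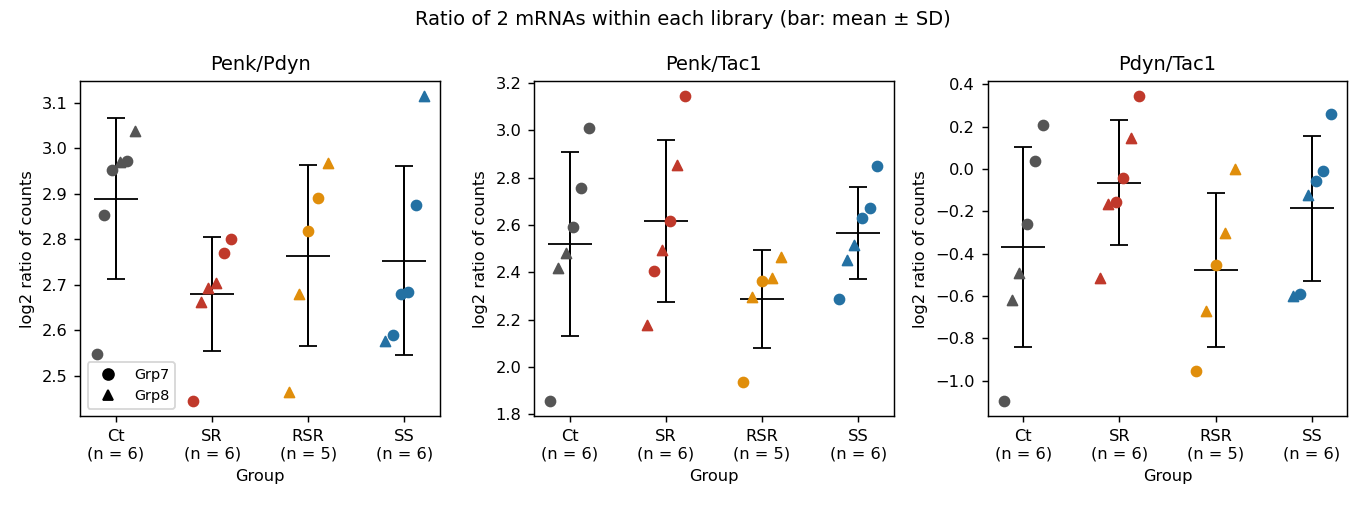
Log2 ratio of the counts of 2 mRNAs within each library, for the Ct, SR, RSR and SS groups (1 point per rat, circles for Grp7 and triangles for Grp8, mean with SD as bars). In the panel of Penk to Pdyn, 5 of 6 Ct rats lie above all SR rats, and in that of Penk to Tac1, 4 of 6 SS rats lie above all RSR rats.

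The 3 mRNAs varied together from rat to rat. Across the 23 rats, Pearson's r of log2 CPM was 0.801 for Penk and Pdyn (Spearman's rho 0.799; permutation p = 2e-05 and 4e-05, adjusted over 3 pairs 4.5e-05 and 0.00012). For Penk and Tac1, r was 0.752 (rho 0.722; permutation p = 3e-05 and 9e-05, adjusted p = 4.5e-05 and 0.000135). For Pdyn and Tac1, which are expressed in the same direct pathway neurons, r was 0.547 (rho 0.557; permutation p = 0.00709 and 0.00657), the lowest of the 3 pairs, though the differences between these r were not tested.

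Some rats stood high in all 3 genes. SR rat Grp8-R7 ranked 1 of 23 for Pdyn and Tac1 and 2 for Penk, and RSR rat Grp7-L2 ranked 3, 2 and 4 for Penk, Pdyn and Tac1. At the low end, SR rat Grp7-R4 ranked 23, 17 and 18 for Penk, Pdyn and Tac1, and SR rat Grp8-R4 ranked 21, 18 and 16. Some Ct rats stood lower in 2 of the genes than in the remaining gene. Ct rat Grp7-R12 ranked 22 for Penk and for Tac1 and 15 for Pdyn. Ct rat Grp7-R6 ranked 22 for Pdyn, 23 for Tac1 and 15 for Penk.

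The shared variation was also present within the groups. With values centred on group means, r was 0.822 for Penk and Pdyn, 0.780 for Penk and Tac1 and 0.608 for Pdyn and Tac1. Without the 2 rats farthest from the median on the x axis (SS Grp8-R10 and SR Grp8-R7 for Penk, SR Grp8-R7 and Ct Grp8-R11 for Pdyn), r was 0.764, 0.674 and 0.458. Within Grp7 r was 0.823, 0.585 and 0.356, and within Grp8 it was 0.778, 0.932 and 0.774, so the relation of Pdyn and Tac1 was not past the threshold within Grp7 (permutation p = 0.228).

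Library measures were set beside these levels. The share of mitochondrial counts had an r of 0.12 with Penk, 0.06 with Pdyn and 0.29 with Tac1, and total counts had an r of -0.06, 0.07 and -0.12 (6 relations, permutation p adjusted 0.811 for each r; Spearman's rho 0.251, 0.189, 0.421, -0.03, 0.05 and -0.10, lowest permutation p = 0.0462, adjusted p = 0.277). Without the 2 rats farthest from the median of the mitochondrial share, its r was 0.354 with Penk, 0.377 with Pdyn and 0.491 with Tac1 (permutation p = 0.115, 0.092 and 0.0251, adjusted p = 0.141 for each), so the low values over 23 rats rest on those 2 rats. Without the 2 rats farthest from the median of total counts, the r of total counts was -0.375 with Penk, -0.196 with Pdyn and -0.352 with Tac1 (lowest permutation p = 0.0956, adjusted p = 0.141). Within Grp7 and Grp8 the r of the mitochondrial share was 0.096 and 0.30 with Penk, -0.027 and 0.351 with Pdyn, and 0.279 and 0.531 with Tac1. Those of total counts were 0.284 and -0.563 with Penk, 0.334 and -0.361 with Pdyn, and 0.086 and -0.467 with Tac1, with no permutation p under 0.05 in either set. The dissected share of each striatal region or cell type was not measured, and its part in the shared variation was not tested.

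**Figure D5:**
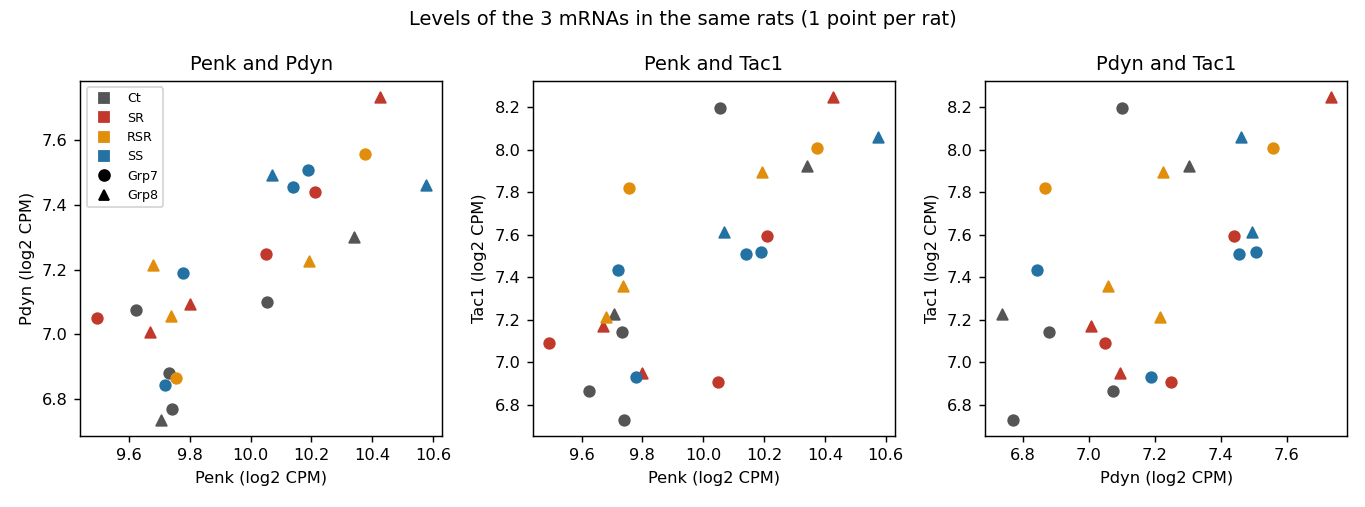
Log2 CPM of Penk, Pdyn and Tac1 plotted pairwise, with 1 point per rat, colors for the Ct, SR, RSR and SS groups, circles for Grp7 and triangles for Grp8. Rats with high Penk tend to have high Pdyn (r = 0.801) and high Tac1 (r = 0.752), with rats of all 4 groups along the range, and the cloud for Pdyn and Tac1 is wider (r = 0.547).

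The 3 genes were then placed among all 14363 genes tested with a mean of at least 1 CPM, by Pearson's r with each over the 23 libraries, as a description without a test, since all values come from the same libraries and scaling. Penk and Pdyn had the same nearest gene, ENSRNOG00000014029 (Rnor6.0 chrX:121578940-121731543, minus strand), with an r of 0.881 with Penk and 0.812 with Pdyn. Its r with Penk was 0.886 within Grp7 and 0.881 within Grp8, and with Pdyn 0.777 and 0.855. Its means were 137 CPM in Ct, 149 in SR, 152 in RSR and 158 in SS.

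Tac1 had its nearest gene in ENSRNOG00000009267 (Rnor6.0 chr14:107592336-107617161, minus strand), with an r of 0.970 over all rats, 0.981 within Grp7 and 0.951 within Grp8. That gene ranged from 45.8 to 85.4 CPM, with means of 61.4 CPM in Ct, 60.4 in SR, 67.4 in RSR and 63.5 in SS. Tac1 had an r of at least 0.8 with 159 genes, Penk with 20 and Pdyn with 3.

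Placed in each other's lists, Pdyn ranked 20 and Tac1 64 among the genes most like Penk, and Penk ranked 3 and Tac1 280 among those most like Pdyn. In the list of Tac1, Penk ranked 246 and Pdyn 995. Penk and Pdyn were thus not among the 159 genes with an r of at least 0.8 with Tac1. The median r over all genes was -0.01 for Penk, 0.01 for Pdyn and -0.01 for Tac1.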

How the data were processed

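RNA was extracted from the dorsal striatum of 23 rats, and poly(A)-selected libraries were sequenced with paired reads. Per the labels and processing notes, the authors used bcl2fastq 2.17, Trimmomatic 0.36, STAR 2.5.2b and featureCounts (Subread 1.5.2). The authors deposited raw counts for each gene of Rnor6.0 without normalizing them. The strand setting used in counting is not given in the sources used here. Groups were taken from the sample labels.

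Computed here, with R 4.3.3 and edgeR 4.0.16, were TMM factors, CPM, RPKM (over merged exon length), log2 fold changes, SEs and p-values. Genes were kept by filterByExpr (minimum count 10, minimum total 15), and all 23 libraries entered one quasi-likelihood fit. P-values were adjusted by Benjamini-Hochberg over all 16275 genes tested. Resistant means SR and RSR, weighted equally. Ratios were tested by two-sided exact permutation and correlations with 100000 resamples, whose smallest possible p is 1e-05. The edgeR and DESeq2 tests, not the permutation tests, were checked on simulated counts. In these each gene varied independently of the others, so the check does not cover genes that vary together. No 2 libraries of a group agreed within counting error (lowest chi-square per degree of freedom 6.6 over 55 pairs).

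The alternatives were DESeq2 1.42.0, fits of only the groups compared, RLE factors, total counts only, no filter, the Grp number as a covariate or by itself, a prior count of 2 for ratios, and each rat left out. The mitochondrial share as a covariate was chosen after seeing the data. The genes named were the 3 members and, for each, the 1 gene with the highest correlation. The members and lists were chosen with earlier results of these data known. The p-values of edgeR set a difference against a spread between rats that was estimated over all groups of the fit together. The permutation tests of ratios exchanged rats between the groups compared, and those of correlations exchanged all rats used, whatever their group. Intervals of the counting error cover that error only.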

Additional observations from a re-analysis of the deposited data

Results flagged for a closer look

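Of 28 sets of values within a group (levels, ratios and the mitochondrial share), 1 had a rat far from the others, where chance gives about 1 in 20. The share of counts on mitochondrial genes in SS rat Grp7-R1 was 19.58%, against 11.92% to 13.29% in the other 5 SS rats, and its distance to the nearest of them was 0.821 of the range of the group, above the critical value of 0.625. This rat also had the lowest Penk and Pdyn levels of its group. Its values entered all results above, and the log2 fold change of Pdyn for SS against Ct was 0.35 with it and 0.42 without it. The log2 ratio of Penk to Pdyn came just under the same critical value in Ct (0.624, rat Grp7-R12) and in SR (0.614, rat Grp7-R4).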

How the results depend on the processing

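None of the 24 log2 fold changes of Penk, Pdyn and Tac1 passed an adjusted p of 0.05 under any setting, with adjusted p from 0.383 to 1 for Penk, 0.0867 to 1 for Pdyn and 0.32 to 1 for Tac1. Their direction stayed in 222 of the values under other settings and 298 of those without a rat, and turned in 12 and 29, and the cause was not tested. Within Grp8, Penk was at -0.050 for SR vs Ct and -0.17 for RSR vs Ct, and Tac1 at -0.092 for RSR vs Ct, -0.32 for RSR vs SS, 0.053 for SR vs RSR and -0.30 for resistant vs SS. Within Grp7, Penk was at 0.13 for RSR vs SS, -0.15 for SR vs RSR and 0.053 for resistant vs SS. Tac1 for resistant vs SS was -0.0017 by total counts only, -0.022 with the Grp number as a covariate and -0.021 with the mitochondrial share as a covariate. With each rat left out, Penk ranged from -0.020 to 0.20 for SR vs Ct, -0.038 to 0.19 for RSR vs Ct and -0.11 to 0.12 for SR vs RSR. Pdyn ranged from -0.022 to 0.19 for SR vs RSR and -0.15 to 0.0020 for SR vs SS. Tac1 ranged from -0.29 to 0.17 for SR vs Ct, -0.043 to 0.29 for SS vs Ct, -0.37 to 0.0022 for SR vs SS, -0.013 to 0.30 for METH vs Ct and -0.11 to 0.14 for resistant vs SS. Without a change of direction, single rats left out moved values by over 1.5 times for Penk in SS vs Ct (0.089 to 0.31), METH vs Ct (0.078 to 0.23), SR vs SS (-0.23 to -0.0017), RSR vs SS (-0.24 to -0.0098) and resistant vs SS (-0.19 to -0.0058), for Pdyn in SR vs Ct (0.19 to 0.36), RSR vs Ct (0.10 to 0.28), RSR vs SS (-0.23 to -0.064) and resistant vs SS (-0.17 to -0.056), and for Tac1 in RSR vs Ct (0.13 to 0.45), RSR vs SS (0.065 to 0.28) and SR vs RSR (-0.53 to -0.19). Of the log2 ratios, Penk to Pdyn was 0.022 for RSR vs Ct within Grp7 and -0.14 for RSR vs SS within Grp8, and Pdyn to Tac1 was 0.23 for RSR vs Ct and 0.036 for RSR vs SS within Grp8. With each rat left out, Penk to Pdyn ranged from -0.041 to 0.085 for RSR vs SS, Penk to Tac1 from -0.036 to 0.20 for SR vs Ct, -0.084 to 0.15 for SS vs Ct and -0.058 to 0.14 for SR vs SS, and Pdyn to Tac1 from -0.25 to 0.014 for RSR vs Ct. The log2 ratio of Penk to Pdyn for SR vs Ct passed the threshold in 1 case, without Ct rat Grp7-R12. The correlation of Pdyn and Tac1 lost its call within Grp7 (r = 0.356), and the other 17 values kept theirs on the unadjusted permutation p, although for Penk and Tac1 within Grp7 the adjusted permutation p was 0.0553. The number of genes under an adjusted p of 0.05, 0 in edgeR's fit, was 15 for SR vs Ct, 1 for RSR vs Ct, 936 for SS vs Ct, 21 for SR vs SS, 1777 for RSR vs SS, 0 for SR vs RSR and 974 for resistant vs SS by DESeq2 on only the groups compared. By edgeR it was 1 for SR vs Ct on only those groups, 86, 20, 32 and 37 within Grp8 for SS vs Ct, SR vs SS, RSR vs SS and resistant vs SS, and 8 for SS vs Ct without SS rat Grp8-L5. Under an unadjusted p of 0.05 it moved by over 1.5 times with no filter, to 1223, 1150 and 1106 for SR vs Ct, RSR vs Ct and SR vs RSR, and was 239 to 1743 within Grp8 and 565 to 4197 within Grp7 over the 8 comparisons. Without 1 rat it moved by over 1.5 times for SR vs Ct (1276, Ct Grp7-R5), RSR vs Ct (1208, Ct Grp8-L11), SR vs SS (2213, SS Grp7-L10), RSR vs SS (2382, RSR Grp7-R7), METH vs Ct (2284, Ct Grp7-R5) and SR vs RSR (357 without RSR Grp7-R7 to 1859 without RSR Grp8-L9). A fit of only the groups compared is the fit of all groups for METH vs Ct. Fits within Grp7 or Grp8 rest on 2 to 4 rats a group, which limits their precision more than the counts of these genes do. No paired analysis was possible because no rat code is shared between groups.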
